A study of Mus musculus with 6 samples.

Results

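The Arp2/3 complex builds branched actin networks, and the data held values for all 9 mouse genes that were taken as its subunits here: Actr2, Actr3, Arpc1a, Arpc1b, Arpc2, Arpc3, Arpc4, Arpc5 and Arpc5l. They were chosen by name, as the rows of the deposited table that carry one of these symbols, and make up 11 of its 25017 entries and 9 of its 20458 gene names. An entry is a set of transcripts of one gene that encode the same protein. Splenic follicular B cells with the surface phenotype B220+AA4.1-CD23+CD21lo had been sorted from C57BL/6 mice of 2 genotypes, CD23Cre+Myh9wt/fl and CD23Cre+Myh9fl/fl, with 3 samples of each. All samples carried the CD23Cre transgene, which deletes the floxed part of Myh9 from the stage at which B cells begin to express CD23. The comparison was therefore between cells that had lost both copies of the myosin IIa heavy chain gene and cells that had lost 1 copy, with no wild-type group. The study's methods describe mice of both sexes within a range of weeks of age for work on freshly isolated cells in general, and neither age nor sex is given for single samples here.

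The authors deposited 1 value per genotype for each entry, pooled over its 3 samples, as fragments per length of transcript and per amount of sequencing (FPKM). Neither the spread between mice nor the read depth is known, so no value below has an error, no difference could be tested, and every ratio compares 2 pooled values. Because FPKM accounts for transcript length, levels of different genes can be set side by side. The RNA was amplified before sequencing, however, and how evenly this acted on different genes is not known. Where a pair of levels is given, the wt/fl value comes first. Genes whose 2 values average 1 FPKM or more, 9879 in all, are called expressed. The deleted gene, Myh9, had levels of 50.6 and 21.1 FPKM, in the direction of the labels. All 9 B cell markers examined were above 177 FPKM in both genotypes. The 13 neutrophil markers summed to 387 and 73.3 FPKM, with all 9 of the expressed ones lower in fl/fl, and Elane and Mpo, which mark early granulocytes, were near 0 in wt/fl (0.119 and 0.0916 FPKM) and listed at 0 in fl/fl. The 6 erythroid marker names found summed to 49.6 and 7.46 FPKM, the 9 macrophage and monocyte markers to 84.5 and 56.6 FPKM, the 8 T cell markers to 13.8 and 11.6 FPKM, and the 4 platelet markers to 1.87 and 2.52 FPKM. The neutrophil and erythroid sums were thus the ones that differed most, both lower in fl/fl, and the part of such cells in the Arp2/3 values was not tested.

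Arp2 and Arp3, encoded by Actr2 and Actr3, are actin-related proteins that together mimic the end of a filament and start a new one. The other subunits hold this pair and anchor it to the side of an existing filament: ArpC2 and ArpC4 form the core that grips the mother filament, ArpC1 is a beta-propeller protein that takes part in binding the activators, ArpC3 contacts Arp3, and ArpC5 tethers Arp2. Mammals have paralogs for several positions, Arpc1a and Arpc1b for ArpC1, Arpc5 and Arpc5l for ArpC5, and Actr3 and Actr3b for Arp3. The complex is inactive until proteins of the WASP and WAVE families bind it, and in B cells branched actin supports spreading on antigen-bearing membranes and movement. Myosin IIa is a motor protein that pulls on actin filaments, and whether it acts on branched ones was not examined here.

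The sequences next to the transcription start were examined first, since genes of one complex could share them. RefSeq promoters (build GRCm38.p6) were found for 8 of the 9 subunit genes, Arpc5l being the exception, and the 250 bases before each start were searched on both strands. The 8-letter motif CCGGAAGT, the kind of site that ETS family transcription factors recognise, was present in 4 of the 8 subunit promoters, compared with 2.93% of 27025 promoters and 6.90% of the 7509 that belong to expressed genes. This motif was picked after the subunit promoters had been read, so the share describes these sequences and was not tested. Only exact matches were counted. Near matches such as GCGGAAGT, which occurs in the Arpc2 promoter, were left out, so a promoter without the motif may still hold a similar site. The 100 bases before the start are shown for the 4 promoters that hold the motif, with the motif in capitals on either strand, and for Arpc1b, the paralog of Arpc1a that does not hold it. They lie at chr1:125435728-125435827 (minus strand, Actr3), chr5:145083769-145083868 (plus, Arpc1a), chr5:122391778-122391877 (plus, Arpc3), chr6:113378013-113378112 (plus, Arpc4) and chr5:145114156-145114255 (plus, Arpc1b).
Actr3: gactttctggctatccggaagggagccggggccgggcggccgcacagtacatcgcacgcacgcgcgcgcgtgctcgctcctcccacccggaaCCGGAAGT
Arpc1a: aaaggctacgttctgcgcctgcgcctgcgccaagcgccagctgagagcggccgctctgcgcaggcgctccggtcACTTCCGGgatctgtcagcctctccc
Arpc3: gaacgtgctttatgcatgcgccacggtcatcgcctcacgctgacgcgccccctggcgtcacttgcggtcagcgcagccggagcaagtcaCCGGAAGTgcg
Arpc4: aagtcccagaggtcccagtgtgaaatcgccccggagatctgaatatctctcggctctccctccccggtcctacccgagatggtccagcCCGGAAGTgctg
Arpc1b: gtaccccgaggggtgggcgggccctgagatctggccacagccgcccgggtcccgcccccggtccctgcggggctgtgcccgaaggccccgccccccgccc
In all 4 the motif lay close to the RefSeq start, with its far end 8 bases before it in Actr3, 11 in Arpc3, 12 in Arpc4 and 26 in Arpc1a, where it is on the opposite strand. GENCODE M21 places the start of Arpc1a 39 bases and that of Arpc1b 41 bases upstream of the RefSeq start. The Arpc1a motif therefore lies inside the GENCODE gene and not before its start. For Arpc2 the GENCODE start lies 433 bases upstream, so the whole window searched for this gene is inside the GENCODE gene, and its motif matches and misses do not describe the sequence before that start. The GC box GGGCGG was in 5 of the 8 promoters (Actr2, Actr3, Arpc1b, Arpc2 and Arpc5), near its share of 60.1% among promoters of expressed genes, and Arpc1b had 7 copies. Of the 8 subunit promoters 0 held the TATA box TATAAA (6.06% of promoters of expressed genes) or the CRE TGACGTCA (2.93%). The CCAAT box (the letters CCAAT) was in Actr2 and Arpc5 (37.5%), the NRF1-type motif CGCATGCG in Actr3 and Arpc2 (3.73%), and a CArG box, the site of serum response factor, in Arpc4 (1.03%).

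Transcripts of the Arp2/3 subunits were abundant and of very unequal level. Actr3 had the highest level, 1017 and 1165 FPKM, and only 0.850% of the expressed genes had a higher mean. Arpc2 followed with 477 and 568 FPKM, then Arpc5 with 238 and 283 FPKM, and Arpc1b with 207 and 230 FPKM. These 4 genes were higher than the other subunits in both genotypes and had fl/fl values between 111% and 119% of the wt/fl ones.
Arpc5l was at 147 and 168 FPKM. Arpc3 was at 139.3 and 139.4 FPKM, and Actr2 at 138.9 and 146 FPKM. These subunits made a middle group, in which Actr2 and Arpc3 exchanged places between the genotypes and lay too close to be ordered. Arpc4 was at 77.4 and 74.5 FPKM, and Arpc1a, the lowest, at 29.6 and 33.3 FPKM. The order of the other 7 genes was the same in both pools.

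**Figure D1:**
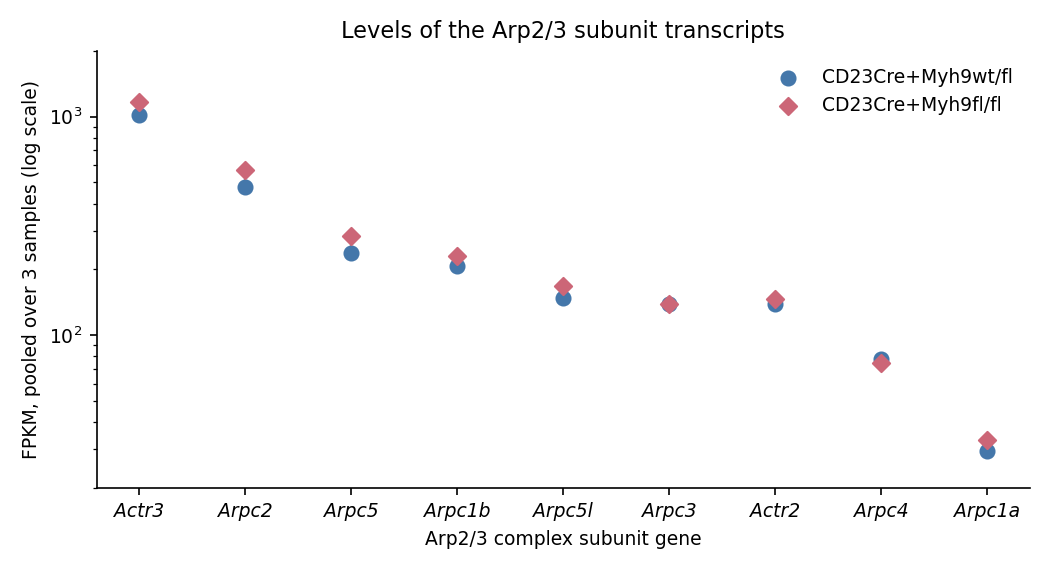
Level of each Arp2/3 subunit transcript (FPKM, log axis) in CD23Cre+Myh9wt/fl (circles) and CD23Cre+Myh9fl/fl (diamonds) follicular B cells, 1 pooled value per genotype and without error bars because single samples are not known. Levels run from 1017 FPKM for Actr3 to 29.6 FPKM for Arpc1a in wt/fl, and the fl/fl value is the lower one for Arpc4 alone.

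The assembled complex holds 1 copy of each of its 7 positions, and their transcripts were not at equal levels. With paralogs added together, the Arp3 position was at 1017 and 1166 FPKM, and the ArpC4 position was the lowest at 77.4 and 74.5 FPKM. The highest position was 13.1 times the lowest in wt/fl and 15.7 times in fl/fl. Actr3 alone made up 41.1% (wt/fl) and 41.5% (fl/fl) of the summed FPKM of the subunits, and it was 7.32 and 7.97 times Actr2, its partner in nucleation.
The level of Actr3 carries an uncertainty that most other subunits do not. In GENCODE M21, 49.8% of the 50-base windows of the longest Actr3 transcript occur unchanged in transcripts of other genes, and 48.3% of all its windows occur in the processed pseudogene Gm8822. For Arpc1b this share was 12.8%, most of it with the processed pseudogene Gm5637, and for Arpc4 it was 10.5%, all with its neighbor Ttll3. It was at most 2.04% for the other 6 subunits and 0 for Arpc3 and Arpc5l. None of the 15 processed pseudogenes that share such windows with a subunit has an entry under its name in the deposited table. Entries are sets of coding transcripts, so this absence does not show where reads from pseudogenes were counted. How reads with several matches were assigned is not given in the sources used here.

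All positions of genes in the table are on mouse build mm9. Arpc1a (chr5:145844737-145869625) and Arpc1b (chr5:145875124-145889055) are neighbors, while Arpc3 lies elsewhere on the same chromosome (chr5:122841936-122856187). Actr3 (chr1:127289481-127332304), Arpc2 (chr1:74283123-74314787) and Arpc5 (chr1:154613671-154622710), the most abundant subunits, are spread over chromosome 1. Actr2 is at chr11:19962306-20012954, Arpc5l at chr2:38863658-38871392, and Arpc4 at chr6:113328106-113364565, a locus that the table shares with Ttll3. Ttll3, a tubulin glycylase gene, was at 10.6 and 10.1 FPKM.
Of the 9 genes 8 had a single entry. Arpc4 had 3, at 75.7 and 74.2 FPKM, at 1.77 and 0.286 FPKM, and at 0 in both genotypes. The first entry made up 97.7% of the Arpc4 level in wt/fl and 99.6% in fl/fl, so that 1 coding sequence carried nearly all of it. Both of its measured entries were lower in fl/fl, and the small one accounted for about as much of the difference as the large one.

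Between the genotypes the subunits differed little, and 8 of 9 were slightly higher after loss of both Myh9 copies. For the subunits the log2 ratio (fl/fl over wt/fl, with 1 added to each FPKM) had a median of 0.16 and a range from −0.055 to 0.25. The same median was 0.0026 over all 9879 expressed genes, of which 50.5% were higher in fl/fl, and 0.017 over the 2481 genes at or above the level of Arpc1a, of which 54.9% were higher. Summed over the 9 genes, FPKM went from 2471 in wt/fl to 2808 in fl/fl, or 114% of the wt/fl value, and without Actr3 it was 113%. Values of the single samples behind each pooled FPKM are not known, so these numbers cannot show whether the shift is larger than the differences between mice.
Arpc5 and Arpc2 had the highest ratios, with fl/fl at 119% of wt/fl for both and a log2 ratio of 0.25. Among all expressed genes, 7.89% had a ratio at least as high as that of Arpc5 and 7.91% one at least as high as that of Arpc2. Actr3 and Arpc5l were at 115% and 114% (log2 ratios 0.20 and 0.19), and Arpc1a and Arpc1b at 113% and 111% (0.16 and 0.15). Actr2 was at 105% (0.072), Arpc3 at 100.1% (0.0016) and Arpc4 at 96.2% (−0.055). None of the 4 most abundant subunits was among the 3 nearest to no difference, Arpc3, Arpc4 and Actr2. The ratios did not follow the levels throughout, however. Arpc1a, the lowest subunit, had a slightly higher ratio than Arpc1b, and Arpc5l was close to Actr3.

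**Figure D2:**
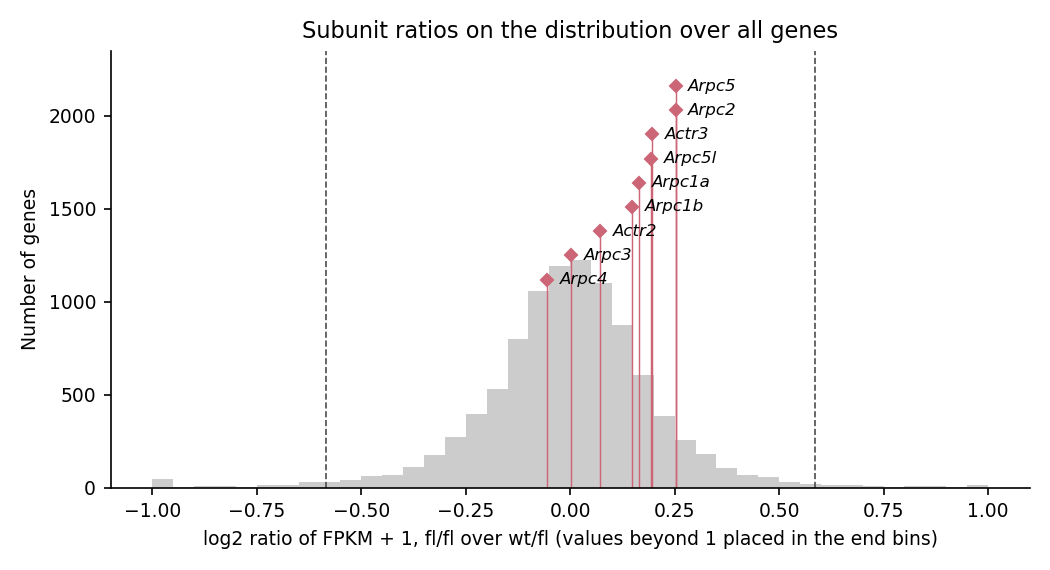
Log2 ratio of FPKM + 1 (fl/fl over wt/fl, horizontal axis) of the 9 Arp2/3 subunits (diamonds, whose height only separates the labels) on the histogram of the 9879 expressed genes (grey, number of genes), with dashed lines at a fold of 1.5 in either direction. All 9 subunits lie between the dashed lines, and 8 lie to the right of 0.

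None of the differences was large. Of the 9 subunits 0 were past a fold of 1.5 in either direction, which 2.32% of the expressed genes were. A fold of 1.1 was reached by 6 subunits, all higher in fl/fl, and by 20% of the expressed genes in that direction. Myh9, by contrast, was at 41.7% of its wt/fl level. Over the 1385 genes that match them in the range of transcript length (899 to 3631 bases) and are at or above the level of Arpc1a, 59.6% were higher in fl/fl and the median log2 ratio was 0.031. By GC content the subunits span 40.3% to 53.1%, a range in which 52.0% of 5707 genes were higher in fl/fl. The part of transcript length in the subunit values was not tested.

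The choice between paralogs was nearly the same in both genotypes. For ArpC1, Arpc1b supplied 87.5% of the FPKM of the pair in wt/fl and 87.3% in fl/fl. Arpc1b is the form known for its high level in blood cells, and its loss in humans causes an immunodeficiency. For ArpC5, Arpc5 supplied 61.8% of the pair in wt/fl and 62.7% in fl/fl, with Arpc5l at a comparable level.
The third pair was one-sided. Actr3b, which is known mainly from brain, was at 0.664 and 1.14 FPKM, or 0.0652% and 0.0981% of the Arp3 position, and it was not among the expressed genes. The coding sequences of the pairs differ enough to tell their fragments apart in most places. The longest annotated coding sequences of Arpc1a and Arpc1b are 74.6% identical over 1101 aligned bases with no identical run longer than 21 bases, those of Arpc5 and Arpc5l 71.3% identical over 453 bases with a longest run of 21, and those of Actr3 and Actr3b 76.3% identical over 1257 bases with a longest run of 20.

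**Figure D3:**
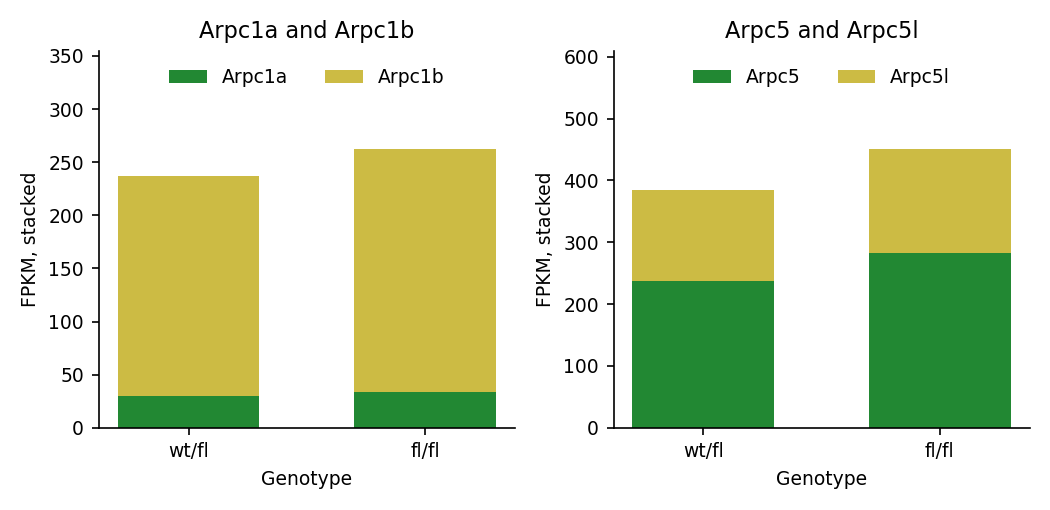
Stacked FPKM of the paralog pairs Arpc1a and Arpc1b (left) and Arpc5 and Arpc5l (right) in wt/fl and fl/fl follicular B cells, 1 pooled value per genotype without error bars. The total of each pair is higher in fl/fl (237 and 263 FPKM for ArpC1, 385 and 452 FPKM for ArpC5), while the shares differ by less than 1 percentage point.

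Genes that switch the complex on, hold it back or work beside it were listed by role, 61 in 7 lists, and all 61 were found, 6 of them under an older symbol. Of these, 49 were expressed, of which 31 were higher in fl/fl, with a median log2 ratio of 0.064. The share higher in fl/fl was 50.5% over all expressed genes and 54.9% over those at or above the level of Arpc1a. Counts for the single lists below are to be read beside these shares, and each list is small. A fold of 1.5 in either direction was passed by 2.32% of all expressed genes, so few of any 49 would pass it. With 1 added to each FPKM, 0 of the expressed genes in the lists were past it. Without that addition Fnbp1l was past it, at 177% of wt/fl from values near 1 FPKM.
In the list of the WASP family and its partners, which carry signals from Cdc42 to the complex, 7 of 10 genes were higher in fl/fl and the median was 0.11. Cdc42, a small GTPase that opens WASP, was the most abundant at 230 and 246 FPKM, followed by the membrane-curving Fnbp1 at 94.6 and 98.9 FPKM. Wasl, which encodes N-WASP, had the lowest ratio at 20.8 and 16.5 FPKM (−0.32), and Fnbp1l the highest at 0.805 and 1.42 FPKM (0.43). Was itself, the blood cell form of WASP, was at 24.4 and 30.5 FPKM (0.31) and is named here after its values were seen. The 2 WASP genes thus differed between the genotypes in opposite directions, on values without a known error.
The WAVE complex list covers subunits of that complex and the GTPases Rac1 and Rac2, under which it acts. In this list 6 of 10 genes were higher and the median was 0.055, with Rac1 (0.10) and Rac2 among the higher ones. Rac2, the Rac of blood cells, was at 250 and 280 FPKM and had the highest ratio (0.16), the small subunit gene Brk1 was at 147 and 140.0 FPKM (−0.067), and Abi3 had the lowest ratio at 17.9 and 13.7 FPKM (−0.37). The WASH complex and other activators, which act on endosomes and the Golgi, had 5 of 7 genes lower and a median of −0.094, which was 0.0041 after upper quartile scaling, a change that shifted the median of all genes to 0.11. Washc4 was the most abundant of them and had the lowest ratio, at 50.7 and 35.1 FPKM (−0.52), Washc3 was at 29.6 and 25.8 FPKM (−0.19), and Whamm was highest in ratio at 8.68 and 9.56 FPKM (0.12).

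Proteins that stabilize branches were represented by Dbnl at 72.4 and 77.2 FPKM and Hcls1, the blood cell relative of cortactin, at 61.9 and 63.0 FPKM, for a median log2 ratio of 0.058, while Cttn, cortactin itself, was not expressed by the 1 FPKM limit, at 0.0608 and 0.0679 FPKM. Among genes that inhibit the complex or remove branches, 7 of 8 were higher in fl/fl and the median was 0.10. Arpin, also in this list, was under the limit at 0.0836 and 0.0534 FPKM and was not counted. With the genes under 1 FPKM included, 8 of 10 were higher and the median was 0.073. Coro1a, the coronin of blood cells, was at 689 and 813 FPKM (0.24), the debranching factor gene Gmfg at 167 and 184 FPKM (0.14), Coro7 at 37.9 and 45.4 FPKM (0.25), and Pick1, with the lowest ratio, at 6.24 and 5.34 FPKM (−0.19). Coro1a was thus the only listed gene above the level of Arpc2.
Filament end capping genes were higher in 4 of 6 cases, with a median of 0.087. Capzb, a subunit of capping protein, was at 150 and 167 FPKM (0.15), Capg at 131 and 145 FPKM (0.15), and Twf1, with the lowest ratio, at 25.7 and 23.3 FPKM (−0.13). For formins, which nucleate unbranched filaments and do not use the Arp2/3 complex, 3 of 6 genes were higher and the median was −0.0041, while with the formins under 1 FPKM included 8 of 11 were lower and the median was −0.042. Fmnl1 was at 67.7 and 65.7 FPKM (−0.042), Diap1 at 22.4 and 23.0 FPKM (0.033), Diap2 at 5.85 and 5.23 FPKM (−0.14) and Inf2 at 2.43 and 2.64 FPKM (0.085). With all 9 genes the Arp2/3 subunits had the highest median of these lists. Without the Arpc1 and Arpc5 pairs, an alternative added after seeing the data, the median of the other 5 subunits was 0.072, lower than those of the WASP, inhibitor and capping lists. The lists overlap widely in their ratios and the difference between them was not tested.

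**Figure D4:**
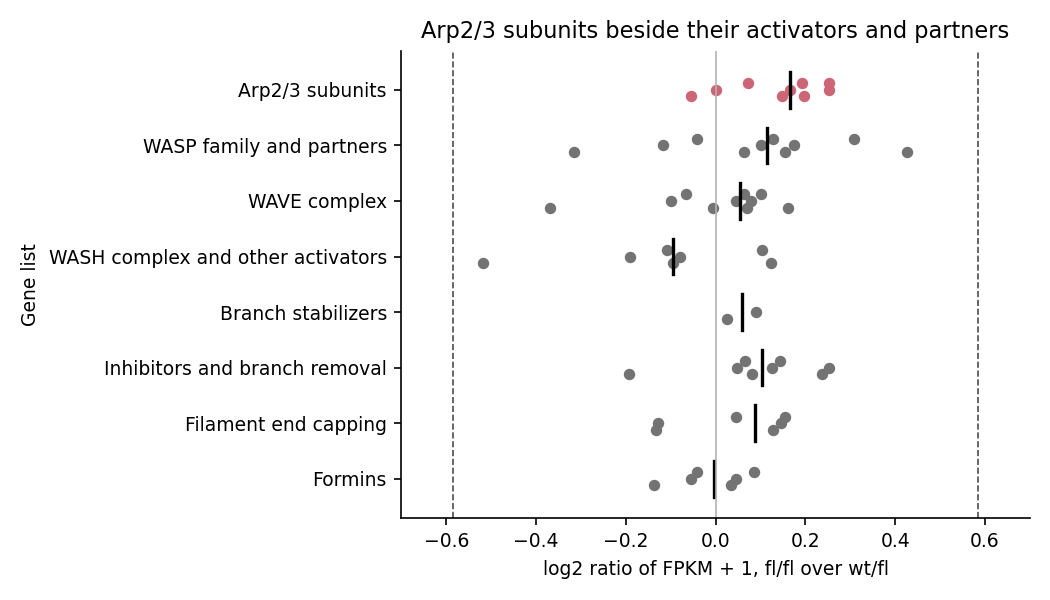
Log2 ratio of FPKM + 1 (fl/fl over wt/fl, horizontal axis) for each expressed gene in the Arp2/3 complex and in 7 lists of its activators and partners (1 row per list, vertical offsets only separate points), with black bars at the median of a list and dashed lines at a fold of 1.5. All points lie between the dashed lines, and the medians run from −0.094 for the WASH list to 0.16 for the Arp2/3 subunits.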

How the data were processed

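RNA of sorted follicular B cells was amplified with the Ovation RNA-Seq system and sequenced, per the labels. The FPKM values were deposited by the authors as 1 table in the layout of Cuffdiff, pooled over the 3 samples of a genotype, and the submitters' processing notes name Bowtie, TopHat and Cufflinks without versions. These notes also name mm10, but the positions of Myh9 and of all 9 subunits do not overlap those in GENCODE M21 (GRCm38), and the sequence names are those of mm9. The table's columns of the authors' own comparison (log2 fold change, test statistic, p-value, q-value) were not used.

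FPKM was summed per gene name, a pseudocount of 1 FPKM was added for log2 ratios, and genes averaging 1 FPKM or more were compared (pandas 2.3.3, Python 3.11.15). With 1 pooled value per genotype no test was made. The summing, ratio, fold and scaling steps were run on a simulated table with known ratios and no noise, which checks the code only. The sequence steps were not checked in this way. Alternatives were pseudocounts, filters, folds, scalings and the top entry only. Named were the subunits, Actr3b and Myh9 and, in each list, the 2 most abundant genes, the highest and lowest ratio and any gene past 1.5-fold. Outside this rule, Was, Cttn, Arpin and Rac1 were named after their values were seen, and Ttll3 for its overlap with Arpc4. Members and lists were chosen with earlier results of these data known. Of 9879 genes, 94.2% had a transcript length and GC content, taken from the longest coding transcript.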

Additional observations from a re-analysis of the deposited data

How the results depend on the processing

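Alternative values that moved by more than 0.1 for log2 ratios, 5 percentage points for shares or 1.5 times for counts, limits that were set without a replicate error, numbered 10, and all came from scaling. Taking the top entry only could not move the paralog shares, since these genes have a single entry each. Upper quartile scaling raised the median log2 ratio of all genes to 0.11, and with it those of the subunits to 0.28, the WAVE list to 0.17, branch stabilizers to 0.17, inhibitors to 0.21, capping genes to 0.20 and formins to 0.11, and the summed FPKM of the subunits to 123% of wt/fl. Relative to all genes the median of the subunits then was 0.17, against 0.16 as deposited and 0.15 to 0.17 over the other pseudocounts and scalings and against the genes at or above the level of Arpc1a. Subunits lower in fl/fl numbered 0 under upper quartile scaling, where Arpc4 was at 104%, and 2 after division by the column sum, where Arpc3 was at 99.98%. The median was 0.16 without Actr3 and 0.072 without the Arpc1 and Arpc5 pairs, both choices made after seeing the data. Subunits past a fold of 1.5 numbered 0 under both other pseudocounts, both scalings and with the top entry only. The median of the WASH list changed sign under upper quartile scaling, to 0.0041. No paired analysis was possible because the table holds 1 pooled column per genotype, for which reason no replicate could be left out. Read depth is unknown, which limits the precision most for genes near 1 FPKM.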
